A study of Zea mays with 12 samples.

Results

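Expression of 10 maize aquaporin genes was followed through the young ear, the ear leaf and the kernel of the inbred line B104, with and without drought. The members were given as a list of gene identifiers, chosen with earlier results of these data known but with no measured value in the rule, and all 10 were found among the 34423 genes of the files. They comprise 8 genes for aquaporins of the plasma membrane and 2 for aquaporins of the tonoplast, the membrane of the vacuole. The PIP1 genes are PIP1-1 (GRMZM2G174807) and PIP1-5 (GRMZM2G081843). The PIP2 genes are PIP2-1 (GRMZM2G014914), PIP2-2 (GRMZM2G092125), PIP2-3 (GRMZM2G081192), PIP2-4 (GRMZM2G154628), PIP2-5 (GRMZM2G178693) and PIP2-6 (GRMZM2G047368). The tonoplast genes are TIP2-1 (GRMZM2G027098) and TIP2-2 (GRMZM2G056908). The control groups came from well-watered field plants and the drought groups from plants that had been kept short of water for 5 days. The ear was taken at the V9 stage, when the spikelets differentiate, and the ear leaf and kernel at 5 days after pollination (5DAP), so organ and stage cannot be told apart in any contrast with the ear. Each of the 6 groups had 2 RNA sequencing libraries, 12 in all, and each library pooled the organ from 4 plants of this 1 inbred line.

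Aquaporins are membrane channels that let water, and in some cases small neutral solutes, cross a membrane along its gradient. PIP proteins set much of the water permeability of the plasma membrane, and TIP proteins that of the tonoplast. In Xenopus oocytes maize PIP2 proteins raise water permeability strongly, whereas PIP1 proteins expressed alone do so little, and PIP1 proteins reach the plasma membrane by assembling with PIP2 proteins. In leaves they serve the path of water from the xylem to the mesophyll, and in growing ears and kernels the uptake of water by expanding cells.

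Rounded library totals lay between 5117208 and 5452598 counts, apart from control ear leaf replicate 2 with 3429219. The organ markers followed the labels in part. The 4 green leaf markers summed to between 18322 and 18515 FPKM (the fragments of a gene relative to its length and to all mapped fragments of the library) in control ear leaf libraries and to between 4530 and 4594 under drought, against at most 134.8 in any ear or kernel library. Young ear markers summed to between 213 and 255 FPKM in the ear and to at most 28.0 elsewhere. Of the 4 endosperm markers only mn1, a cell wall invertase of the kernel base, separated the kernel (35.1 and 41.9 FPKM in control, 6.44 and 8.10 under drought) from the other organs (at most 0.61), while pbf1 was at or under 0.30 in every library. In bulk libraries, fewer cells of a type and less RNA per cell cannot be told apart. The p-values and SEs below measure the spread between pools of plants, estimated per gene and shared by the 6 groups. The 2 libraries of a group differed more in control ear leaf (mean chi-square per gene 3.98) and control kernel (3.15). In the other groups it was 1.27 to 1.38. For contrasts with control ear leaf or control kernel the shared spread can therefore be too small.

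In watered plants, PIP1-1, PIP2-1 and PIP2-2 were the only 3 members above 90 FPKM in all 3 organs. PIP2-1 led in the ear (496 and 521 FPKM) and the kernel (570 and 483 FPKM), and PIP1-1 led in the ear leaf (668 and 669 FPKM). The other members were mainly leaf or kernel genes. PIP1-5 (85.8 and 80.9 FPKM), PIP2-5 (130 and 145 FPKM) and PIP2-6 (139 and 132 FPKM) had their highest watered levels in the ear leaf. PIP2-3 was highest in the kernel (38.1 and 38.7 FPKM), with at most 1.56 FPKM in any watered ear leaf or ear library. TIP2-1 was about as abundant in the kernel (142 and 110 FPKM) as in the ear leaf (129 and 125 FPKM), with overlapping libraries, and far less so in the ear (5.47 and 6.31 FPKM). On the TMM scale described below its kernel level was -0.86 log2 units from the leaf (SE 0.11), and -0.01 with library size alone, neither called, but -1.08, and called, without control kernel replicate 1. TIP2-2 was listed only in the 2 watered kernel libraries (2.64 and 1.24 FPKM), from 22 rounded counts in all, and its level there was at least 3.65-fold that of the watered ear and at least 1.64-fold that of the watered ear leaf at a floor of 3 counts per library.

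**Figure D1:**
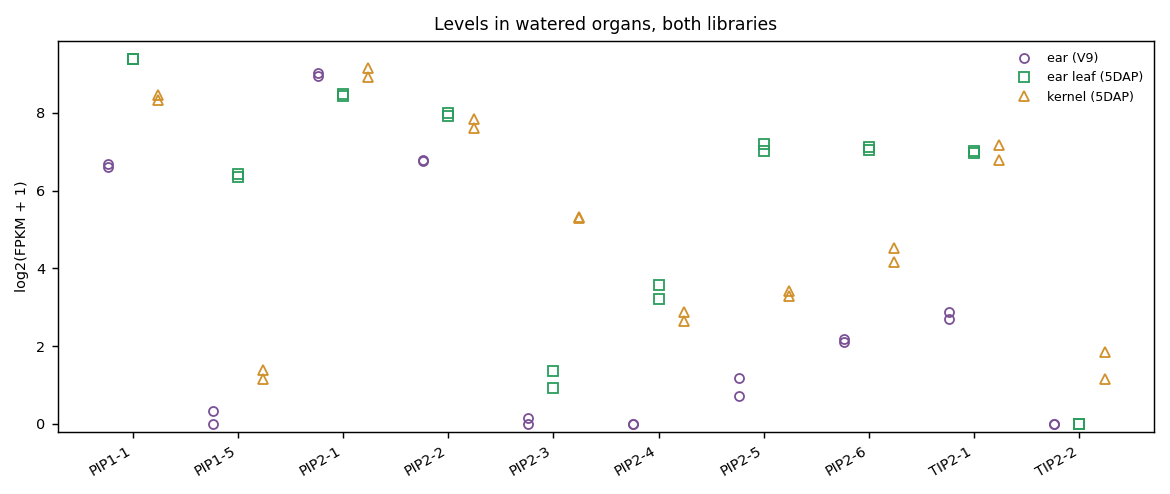
Level of each member in watered plants as log2(FPKM + 1), one symbol per library, with the 3 organs side by side. PIP1-1, PIP2-1 and PIP2-2 were high in all organs, PIP1-5, PIP2-5 and PIP2-6 were highest in the ear leaf and PIP2-3 in the kernel.

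The organ contrasts were tested on TMM-scaled counts with the quasi-likelihood test of edgeR, and p was adjusted over 26089 genes (Benjamini-Hochberg). A gene was called when the adjusted p was under 0.001 and log2 fold change was 1 or more in size. This filter kept 9 members and left out TIP2-2. Between watered ear leaf and watered ear, 8 of the 9 tested members were called, all higher in the leaf, where 48.7% of all tested genes were called in either direction and 26.1% were higher. PIP1-1 was 12.02-fold higher in the leaf (log2 3.59, SE 0.06), PIP2-5 258-fold (8.01, SE 0.41), PIP2-6 70.4-fold (6.14, SE 0.22) and TIP2-1 38.4-fold (5.26, SE 0.20). For members with 0 to 3 counts in the watered ear only counting ratios apply. These are PIP1-5, PIP2-3 and PIP2-4, with at most 2 counts in a watered ear library. They were kept for testing through their leaf or kernel counts. Against the watered ear they could only be called higher in the other organ. PIP1-5 was 1111-fold higher in the leaf (exact 95% interval 307 to 9189, from 2 counts in the ear) and PIP2-4 at least 44.7-fold higher (0 counts in the ear). These intervals cover counting error only.

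Between watered kernel and watered ear, 7 members were called, all higher in the kernel, against 24% of all tested genes in either direction and 14.6% higher. The call of PIP1-5 rests on 2 counts in the ear and 21 in the kernel. It was lost without any single library of either group and under several alternatives given below. PIP2-3 was 665-fold higher in the kernel (exact 95% interval 119 to 26293, from 1 count in the ear), and TIP2-1 was 21.1-fold higher (log2 4.40, SE 0.20). PIP2-1 did not differ beyond its spread (log2 0.03, SE 0.06, adjusted p = 0.699 by edgeR), and its kernel and ear libraries overlapped. Between watered kernel and ear leaf, 7 members were called, 6 of them lower in the kernel, against 44.9% of all tested genes in either direction, 21.8% higher and 23.1% lower. PIP2-3 was the member that was higher in the kernel (log2 4.04, SE 0.37), while PIP1-5 (-6.71, SE 0.33), PIP2-5 (-4.74, SE 0.16) and PIP2-6 (-3.62, SE 0.12) were lowest there relative to the leaf.

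Scaling mattered for the organ contrasts. Control ear leaf libraries had the smallest TMM factors, 0.648 and 0.670, and the other libraries had factors from 0.831 to 1.26. Scaled by library size alone, the median over all tested genes shifted on the log2 scale, for watered leaf against ear from -0.01 to -0.85, and for watered kernel against leaf from 0.00 to 0.86. PIP2-1 then turned from 0.32 to -0.51 in the first contrast and from -0.29 to 0.56 in the second, and PIP1-1 (-0.99), PIP2-2 (-0.22) and PIP2-4 (-0.67) were no longer called in the second. For drought the same step shifted the leaf median from -0.03 to 0.28 and the kernel median from 0.00 to -0.20. Over all genes, leaf calls went from 1861 higher and 2398 lower to 3099 and 1568, kernel calls from 3564 and 3514 to 2907 and 4458, and ear calls from 1030 and 858 to 1244 and 680. Drought changes below are therefore relative to the TMM scale, whereas FPKM is relative to all mapped reads of a library.

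The drought calls of the members went in both directions. PIP1-1 rose in ears and kernels and PIP2-2 in kernels, whereas PIP2-5 and PIP2-6 fell in ear leaves and kernels, and TIP2-1 fell in all 3 organs. In the ear 2 of the 9 tested members were called (1 higher, 1 lower) against 7.24% of all tested genes in either direction, 3.95% higher and 3.29% lower. In the ear leaf 3 were called, all lower, against 16.3% of all tested genes, 7.13% higher and 9.19% lower. In the kernel 5 were called (2 higher, 3 lower) against 27.1%, 13.7% higher and 13.5% lower. Control and drought libraries did not overlap in CPM for 6, 9 and 9 of the 9 tested members in ear, leaf and kernel, where 66.9%, 67.6% and 77.9% of all tested genes did not. Over the members above the floor the median log2 value was -0.45 for the ear (6 members), -0.62 for the leaf (9) and -0.54 for the kernel (9), beside -0.01, -0.03 and 0.00 over all tested genes.

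**Figure D2:**
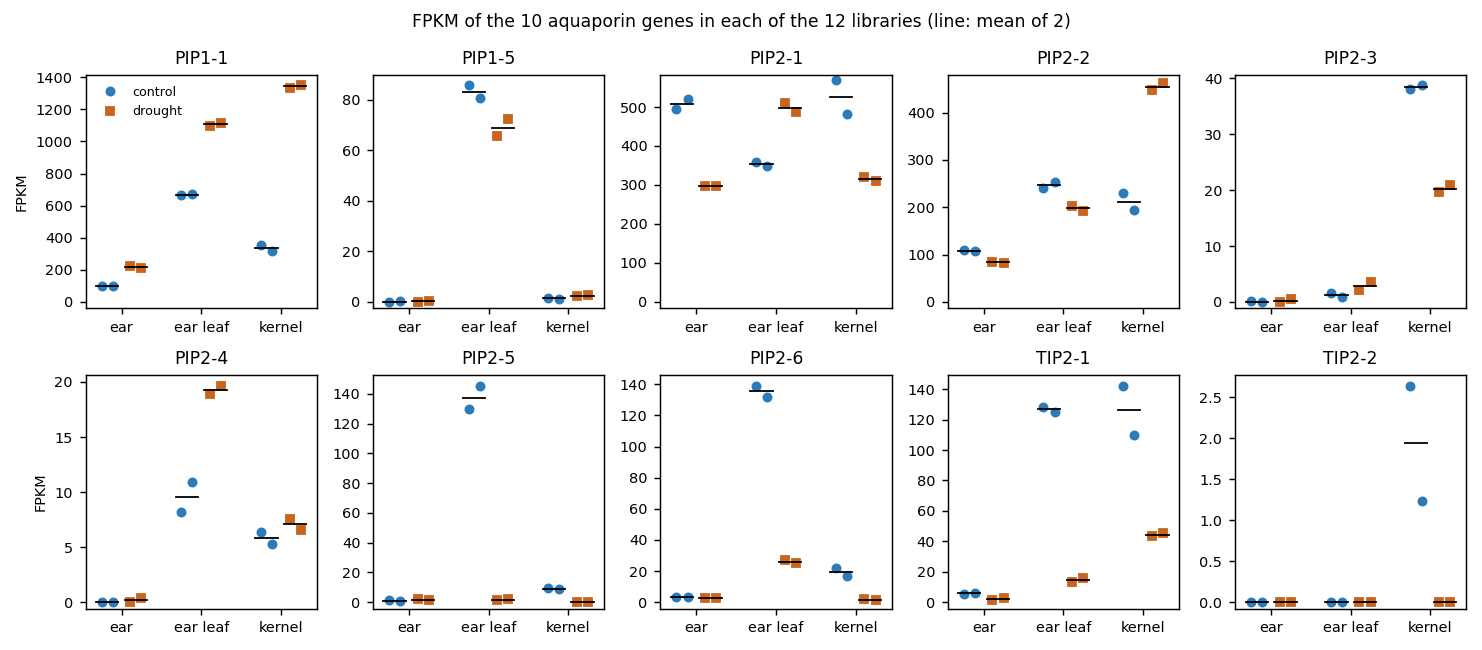
FPKM of each member in every library, with circles for control, squares for drought and a line at the mean of 2 libraries. Each panel has its own scale. PIP1-1 reached 1336 and 1354 FPKM in drought kernels, while PIP2-5 went from 130 and 145 to 1.38 and 2.03 FPKM in the ear leaf.

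PIP1-1, the more abundant of both PIP1 members, had the largest rise among the members. In the kernel it had 354 and 320.0 FPKM in control libraries and 1336 and 1354 FPKM under drought. The drought libraries lay far above the control libraries, and the difference was 4.58-fold (log2 2.195, SE 0.06, adjusted p = 6.35e-22 by edgeR). In the ear it had 96.8 and 102 FPKM in control libraries and 225 and 213 FPKM under drought. These groups did not overlap either, and the difference was 2.06-fold (log2 1.04, SE 0.06, adjusted p = 2.28e-13 by edgeR). That value sits close to the fold criterion. It was 1.00, just short of the criterion, without control ear replicate 1, and the ear call was lost when the null was a log2 change of 1. In the ear leaf PIP1-1 had 668 and 669 FPKM in control libraries and 1097 and 1117 FPKM under drought. Here the TMM-scaled log2 fold change was 0.39 (SE 0.06, adjusted p = 1.60e-06 by edgeR) and 0.73 with library size alone, both short of the fold criterion.

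PIP1-5, the second PIP1 member, was highest in the ear leaf and was not called under drought in any organ. It had 85.8 and 80.9 FPKM in control ear leaves and 65.6 and 72.5 FPKM under drought, with a log2 fold change of -0.62 (SE 0.10). The kernel had 1.62 and 1.23 FPKM in control and 2.35 and 2.64 FPKM under drought, from 9 to 19 counts a library, and the log2 difference of 0.99 (SE 0.41, adjusted p = 0.0312 by edgeR) did not pass. At most 3 counts were found in any ear library, so no ratio is given there.

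PIP2-5 had the largest decrease among the members. This gene for a water channel, active in oocytes, had 130 and 145 FPKM in control ear leaves and 1.38 and 2.03 FPKM under drought. Its ear leaf libraries went from 869 and 614 to 9.27 and 13.3 expected counts, a 103-fold decrease (log2 -6.69, SE 0.31, adjusted p = 1.59e-21 by edgeR). In the kernel PIP2-5 had 9.65 and 8.76 FPKM in control libraries, and under drought 0.49 FPKM in replicate 1 and 0 in replicate 2. With 3 rounded counts left under drought, the control kernel level was 33.9-fold higher (exact 95% interval 11.3 to 167, counting error only), and the edgeR test passed (adjusted p = 2.27e-10). Without drought kernel replicate 2 the fitted log2 value was -4.02, and without replicate 1, where no count is left under drought and the fitted value is no bound, it was -8.65, both called. In the ear the gene was low throughout, with 1.26 and 0.64 FPKM in control libraries and 1.96 and 1.69 FPKM under drought. The ear log2 fold change was 0.87 (SE 0.51, adjusted p = 0.174 by edgeR).

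PIP2-6 also fell in the ear leaf and the kernel. Its ear leaf level went from 139 and 132 FPKM to 27.1 and 25.1 FPKM, a 6.56-fold fall (log2 -2.71, SE 0.11, adjusted p = 3.97e-18 by edgeR). Its kernel level went from 22.2 and 17.1 FPKM to 1.83 and 1.68 FPKM, a 9.38-fold fall (log2 -3.23, SE 0.30, adjusted p = 2.75e-12 by edgeR). In both organs every drought library lay far below both control libraries. The ear had 3.33 and 3.58 FPKM in control and 3.05 and 2.71 FPKM under drought, and the log2 fold change of -0.42 (SE 0.32) did not pass. PIP2-6 is a close neighbour of PIP2-1, with 2 annotated genes between them in the RefSeq gene table of the B73 assembly Zm-B73-REFERENCE-NAM-5.0.

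PIP2-1 was not called under drought in any organ. It had 496 and 521 FPKM in control ears and 297 and 296 FPKM in drought ears. The groups did not overlap, yet the log2 difference of -0.88 (SE 0.07, adjusted p = 2.62e-11 by edgeR) stayed short of the fold criterion. In the kernel it had 570 and 483 FPKM in control libraries and 321 and 310 FPKM under drought (log2 -0.54, SE 0.07). In the ear leaf 358 and 349 FPKM stood against 510 and 487 FPKM under drought, but on the TMM scale the log2 fold change was 0.15 (SE 0.07, adjusted p = 0.0657 by edgeR), and 0.49 with library size alone.

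On the TMM scale PIP2-2 was the only PIP2 member called as higher under drought in any organ. Its kernel level was 230 and 194 FPKM in control libraries and 448 and 462 FPKM under drought, a 2.46-fold rise (log2 1.30, SE 0.07, adjusted p = 6.98e-15 by edgeR). All libraries of one group lay above those of the other. In the ear (109 and 108 against 84.6 and 82.8 FPKM) and the ear leaf (241 and 253 against 203 and 192 FPKM) the drought libraries were the lower ones, with log2 fold changes of -0.47 (SE 0.08) and -0.66 (SE 0.07) that stayed short of the criterion.

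PIP2-3 and PIP2-4 were minor members that were not called in any organ under drought. PIP2-3 had 38.1 and 38.7 FPKM in control kernels and 19.6 and 20.8 FPKM under drought (log2 -0.72, SE 0.15, adjusted p = 1.55e-04 by edgeR). In the ear leaf it had 1.56 and 0.91 FPKM against 2.18 and 3.53 FPKM (log2 0.80, SE 0.42). PIP2-4 had 8.23 and 10.9 FPKM in control ear leaves and 18.9 and 19.7 FPKM under drought (log2 0.71, SE 0.20, adjusted p = 0.00468 by edgeR). That value was 1.05, and called, with library size alone. Its kernel level was 6.38 and 5.30 FPKM in control and 7.58 and 6.59 FPKM under drought (log2 0.47, SE 0.24). In the ear the libraries of both genes held at most 4.31 counts, and no ratio is given.

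Of the tonoplast genes, TIP2-1 fell under drought in each organ, and its Arabidopsis namesake carries water and ammonia into the vacuole. Ear leaf libraries went from 129 and 125 FPKM to 13.5 and 15.7 FPKM, a 10.98-fold fall (log2 -3.46, SE 0.15, adjusted p = 6.33e-18 by edgeR). Kernel libraries went from 142 and 110 FPKM to 43.4 and 45.5 FPKM, a 2.47-fold fall (log2 -1.30, SE 0.12, adjusted p = 1.39e-10 by edgeR). In both organs the groups lay wide apart. Ear libraries went from 37 and 42 counts to 8 and 18 counts (5.47 and 6.31 against 1.23 and 2.76 FPKM), a difference of -1.65 on the log2 scale (SE 0.37, adjusted p = 3.43e-04 by edgeR). The ear call was lost without control ear replicate 1, control ear replicate 2 or drought ear replicate 1, over a range of -2.33 to -1.19. With that stricter null, and with limma on log2(FPKM + 0.1), both the ear and the kernel calls were lost. TIP2-2 had 14.97 and 7.05 expected counts in control kernels and none in the drought kernels, so its control level was at least 3.15-fold higher at a floor of 3 counts per library, without a test.

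**Figure D3:**
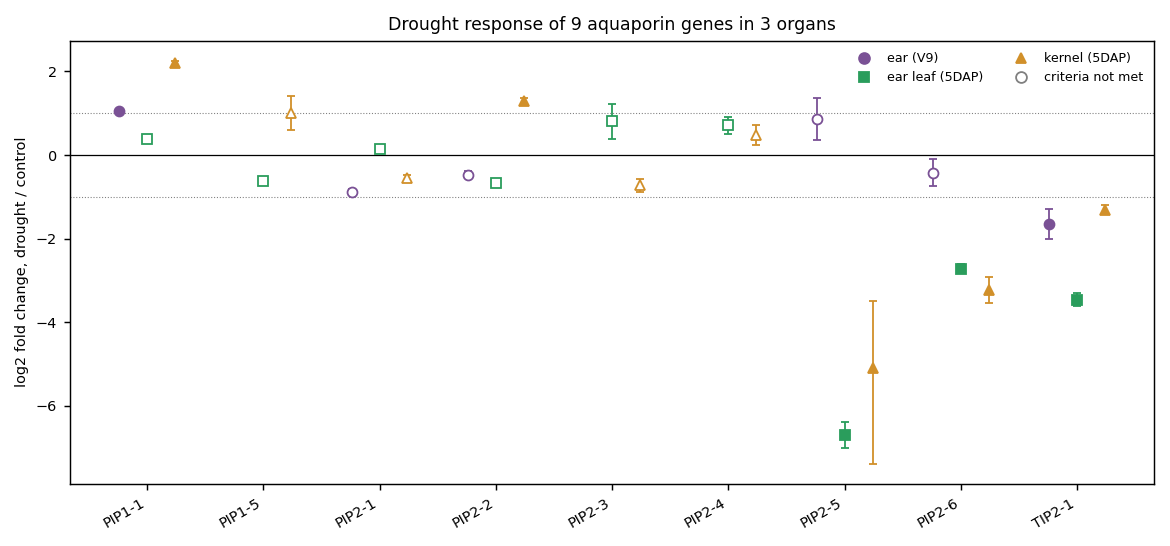
Log2 fold change of drought over control for the 9 tested members, with 3 symbols for the organs and open symbols where the criteria were not met. Bars are standard errors of the edgeR fit, except for PIP2-5 in the kernel, drawn as a ratio of summed counts with its exact 95% interval; values are left out where both groups were at or under the floor.

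In the same ear leaf libraries the summed green leaf markers went from between 18322 and 18515 FPKM to between 4530 and 4594 FPKM, with all 4 markers lower under drought. In the kernel the summed endosperm markers went from 56.4 and 52.0 FPKM to 15.8 and 14.4 FPKM, with pbf1 near 0 throughout. The part of these shifts in the aquaporin values was not tested.

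Whether the drought effect differed between organs was tested as an interaction term, called at an adjusted p under 0.05. Between ear leaf and ear it differed for 5 of the 9 tested members, against 35.9% of all tested genes, between kernel and ear for 5, against 39.3%, and between kernel and ear leaf for 6, against 45.8%. PIP1-1 differed in all 3 comparisons, with its largest rise in the kernel (1.15 log2 units above the ear and 1.81 above the ear leaf). The response of PIP2-2 was 1.96 log2 units (SE 0.10) higher for kernels than for ear leaves. The fall of TIP2-1 was 2.15 log2 units (SE 0.19) smaller in kernels than in ear leaves. For PIP2-6 the difference between the kernel and ear leaf responses depended on the setting. It did not pass on the TMM scale (-0.52, SE 0.32, adjusted p = 0.175 by edgeR) but passed with library size alone (-1.05, adjusted p = 0.00324 by edgeR), with limma on log2(FPKM + 1) (-0.56, adjusted p = 0.0274) or log2(FPKM + 0.1) (-1.03, adjusted p = 0.00285), and without control kernel replicate 2 (-0.73). The same contrast did not pass for PIP2-5 (adjusted p = 0.197 by edgeR), whose kernel value rests on 3 counts, but passed with limma on log2(FPKM + 1) (2.62, adjusted p = 3.90e-05) and without drought kernel replicate 2 (2.67), and its sign turned without drought kernel replicate 1 (-1.96). With 1 added to each FPKM, PIP2-5 at 9.65 and 8.76 FPKM in control kernels could not fall as far as in the ear leaf. There it went from 130 and 145 to 1.38 and 2.03 FPKM, so the sign of that limma value was fixed by the starting levels. The 3 interaction contrasts share libraries with each other.

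With these changes the make-up of the summed transcripts of the 10 members shifted toward PIP1-1 in all 3 organs. PIP1-1 made up 13.7% ± 0.144 (SD, n = 2) of the summed FPKM of the 10 members in control ears and 36.1% ± 0.870 under drought. In the ear leaf its share went from 37.9% ± 0.0343 to 57.2% ± 0.792, and in the kernel from 26.4% ± 0.990 to 61.4% ± 0.136. The share of PIP2-1 moved the other way in the ear (69.9% ± 0.429 to 48.9% ± 0.615) and the kernel (41.2% ± 0.286 to 14.4% ± 0.466), but from 20.04% ± 0.427 to 25.7% ± 0.795 in the ear leaf. In the ear leaf sum the 2 TIP members, almost wholly TIP2-1, went from 7.30% and 7.07% to 0.696% and 0.814%. In the kernel sum they went from 10.53% and 9.40% to 1.99% and 2.07%. No groups overlapped in these shares. With 2 libraries a group an exact permutation test cannot go below p = 0.333, so none was used. Tonoplast genes outside the members do not enter these shares. Of those, TIP4-2 had 219 and 230 FPKM in control ear leaves and 367 and 352 under drought. TIP4-1 had 142 and 138 FPKM against 69.2 and 60.2 there.

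The ratio of the summed FPKM of the 2 PIP1 members to that of the 6 PIP2 members was higher in both drought libraries than in both control libraries of each organ. It went from 0.159 and 0.162 to 0.582 and 0.556 in the ear, from 0.859 and 0.843 to 1.53 and 1.63 in the ear leaf, and from 0.407 and 0.430 to 1.68 and 1.69 in the kernel. A further PIP1 gene matched by identifier, PIP1-3/PIP1-4, was added to the sum after the values were seen. With it the ratio went from 0.336 and 0.326 to 0.917 and 0.868 in the ear. It went from 1.06 and 1.04 to 1.81 and 1.92 in the ear leaf, and from 0.643 and 0.668 to 1.83 and 1.84 in the kernel. The summed FPKM of all 10 members was 712 and 741 in control and 613 and 601 under drought in the ear. It was 1761 and 1765 against 1939 and 1935 in the ear leaf, and 1377 and 1179 against 2180 and 2203 in the kernel. These sums are relative to all mapped reads, and TMM factors differed in the ear leaf (0.648 and 0.670 in control, 0.831 and 0.834 under drought). The 10 members were not summed on the TMM scale. There the sum of the 3 PIP1 genes matched by identifier changed by 0.24 log2 units in the ear leaf, not called. The 6 summed PIP2 genes changed by -0.44, not called. In drought kernels PIP1-1 ranked 19 among all genes by FPKM in both libraries, where the leading member of the control kernels, PIP2-1, ranked 60 and 69.

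**Figure D4:**
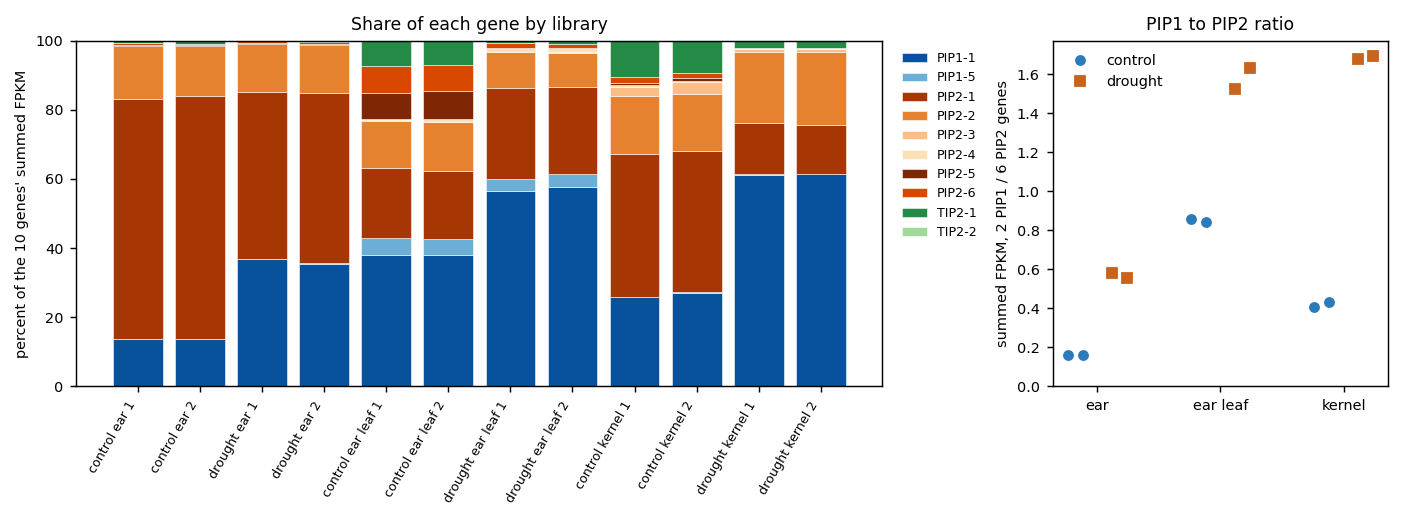
Left, share of each member in the summed FPKM of the 10 members, one bar per library; right, ratio of summed FPKM of the 2 PIP1 to the 6 PIP2 members in each library. PIP1-1 took up to 61.5% of the sum in drought kernels, and the ratio was higher in both drought libraries than in both control libraries of each organ.

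Reads of related aquaporins can be shared. Expected counts of PIP1-1, PIP2-1, PIP2-2 and PIP2-6 were not whole in any of the 12 libraries (tolerance 0.005), as happens when reads are divided between genes, while those of TIP2-1 were at most 0.08 from a whole number. Single PIP values therefore depend on how the deposited counts divided such reads. Genes matched by identifier were also summed to 1 value per subfamily, an alternative added after the values were seen. The 3 PIP1 genes gave log2 changes of 0.61 for ear, 0.24 for leaf and 1.67 for kernel, the last called. The 6 PIP2 genes gave -0.80, -0.44 and 0.10 (adjusted p = 0.153 by edgeR in the kernel), none called.

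Beside the members, 17 further aquaporin genes were matched by identifier, and 15 of them were tested. These are PIP1-3/PIP1-4, further TIP genes, NIP genes, whose proteins pass solutes such as silicon and boron, and SIP genes of the endoplasmic reticulum. In the ear 3 of the 15 were called, all lower, in the ear leaf 3, all lower, and in the kernel 10, of which 4 were higher and 6 lower, beside 7.24%, 16.3% and 27.1% of all tested genes. Above the floor their median log2 value was -0.10 for the ear (13 genes), 0.03 for the leaf (13) and -0.51 for the kernel (15).

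In the kernel TIP4-3 had the largest decrease, from 50.8 and 44.95 FPKM to 0.52 and 0.70 FPKM (log2 -6.08, SE 0.56). TIP3-2, of a group found in Arabidopsis in the membrane of seed storage vacuoles, went from 0.40 and 0.83 FPKM to 3.48 and 4.64 FPKM (log2 3.20, SE 0.67). TIP3-1 was 22.2-fold higher under drought (exact 95% interval 3.54 to 924, from 1 count in the control). Reads of this pair cannot be separated with confidence, since in all 6 libraries with fractions their sum was whole (tolerance 0.025). NIP2-1, a silicon channel, fell in the kernel (4.32 and 2.98 to 1.03 and 0.45 FPKM, log2 -2.01, SE 0.45) and in the ear leaf (69.3 and 65.9 to 12.15 and 11.97 FPKM, log2 -2.81, SE 0.14). The ear leaf also had NIP3-1, a boron channel of maize, lower (6.51 and 9.66 to 4.32 and 5.04 FPKM, log2 -1.11, SE 0.23). TIP4-1 was lower there too (142 and 138 to 69.2 and 60.2 FPKM, log2 -1.44, SE 0.10). Its fractional reads summed to whole numbers with those of TIP4-2 in all 12 libraries. TIP4-2 changed the other way in the ear leaf (log2 0.33, SE 0.08), not called. Summed to 1 value, again after the values were seen, the 4 TIP4 genes gave -0.11 in the ear leaf (adjusted p = 0.276 by edgeR). That sum was not called, nor was the ear sum (-0.66), while the kernel sum (-1.67) was called. In the kernel TIP4-1 (log2 1.87, SE 0.41, called) and TIP4-2 (0.68, SE 0.15, not called) rose. TIP4-3 and TIP4-4 (-1.92, SE 0.10, called) fell there. In the ear NIP2-3 (-1.80, SE 0.30), TIP4-4 (-1.07, SE 0.19) and SIP2-1 (-1.02, SE 0.21) were the genes called. Fractional reads of NIP2-3 summed to whole numbers with those of NIP2-2 in all 9 libraries with fractions. NIP2-2 was not called in the ear (log2 -0.30, SE 0.38).

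Genes with the most similar pattern to 3 members were sought by Pearson correlation of log2(CPM + 1) over the 12 libraries and 26089 genes, as a description, since the libraries share organs and treatments. For PIP1-1 they were GRMZM2G126010 (r = 0.996), annotated as actin, GRMZM2G067546 (r = 0.994) and GRMZM2G010460 (r = 0.992). GRMZM2G010460 went from 55.9 and 60.8 FPKM to 403 and 412 FPKM in the kernel under drought. For PIP2-5 they were GRMZM2G458776 (r = 0.979), GRMZM2G064657 (r = 0.978) and GRMZM2G154508 (r = 0.975). For TIP2-1 they were GRMZM2G420743 (r = 0.972), GRMZM2G133396 (r = 0.967) and GRMZM2G046966 (r = 0.966). Such a correlation does not measure the size of changes. Under drought GRMZM2G133396 changed by -0.23, -0.39 and -0.16 log2 units in ear, ear leaf and kernel. GRMZM2G420743 changed by -0.81, -2.67 and -1.59, and GRMZM2G046966 by -0.56, -1.04 and -0.64. GRMZM2G064657 shared the leaf pattern of PIP2-5, with 16.7 and 16.5 FPKM in control ear leaves and 0.28 and 0.43 FPKM under drought. GRMZM2G458776 did not exceed 2.51 FPKM in any library.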

How the data were processed

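The 12 libraries were made from oligo(dT)-enriched RNA, sequenced on an Illumina instrument and first analysed by a sequencing company for the authors. The deposited expected counts are estimated reads per gene, not normalized, with fractions where reads were divided between genes or isoforms, and the deposited FPKM values are the same estimates per gene length and mapped reads. The aligner, the counting program and the genome build are not given in the sources used here. A gene listed in some libraries was given 0 in those that did not list it.

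Expected counts were rounded, leaving 34238 genes with a count, filtered with filterByExpr, scaled with TMM factors and modelled as 6 group means in edgeR 4.0.16 (R 4.3.3). Drought contrasts, contrasts of watered organs and interactions used the quasi-likelihood F test over 26089 genes. The script was tested on simulated data. Alternatives were DESeq2 1.42.0, library size only, no filter, a mean of at least 10 counts, organs fitted alone, limma 3.58.1 on log2(FPKM + 1) or log2(FPKM + 0.1), a null of 1 log2 unit, another adjusted p threshold, a block for the replicate number, and omission of single libraries. Bounds and ratios of groups with few counts used a floor of 3 counts per library, worth between 0.466 and 1.31 CPM, and exact binomial intervals from scipy 1.17.1. Tables and figures used Python 3.11.15, pandas 2.3.3, numpy 2.4.6 and matplotlib 3.10.9.

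The members and lists were chosen with earlier results of these data known. The text names all 10 members in each organ and the 3 genes most like each of 3 members. Of the other aquaporin genes it names those called under drought, with at most 4 per organ. TIP4-2 and NIP2-2, not called, are given beside TIP4-1 and NIP2-3 because of shared reads. Kernel values of further TIP4 genes are given beside the TIP4 sum. Names follow the RefSeq gene table of Zm-B73-REFERENCE-NAM-5.0, also for the tonoplast members, which the list of identifiers had named TIP1-1 (here TIP2-1) and TIP2-1 (here TIP2-2). The table gives 27 aquaporin genes with an identifier of the files. It names 4 more without such an identifier, so sums over a subfamily cover matched genes only and may be incomplete. Of the green leaf and young ear markers listed, 1 each was dropped because the table does not name it, and 1 endosperm marker was not analysed here. Single-gene values of the organ markers come from FPKM alone.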

Additional observations from a re-analysis of the deposited data

Results flagged for a closer look

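Drought effects of members differed between organs by the interaction test (edgeR, adjusted p under 0.05) for 5, 5 and 6 of the 9 tested members, where 35.9%, 39.3% and 45.8% of all tested genes passed. Values are differences of log2 fold changes between organs. Between ear leaf and ear the difference was -0.66 for PIP1-1, 1.03 for PIP2-1, -7.56 for PIP2-5, -2.29 for PIP2-6 and -1.81 for TIP2-1. That of TIP2-1 ran from -2.26 to -1.12 without single libraries and did not pass without drought ear replicate 2. Between kernel and ear it was 1.15 for PIP1-1, 0.33 for PIP2-1, 1.77 for PIP2-2, -5.84 for PIP2-5 and -2.81 for PIP2-6. That of PIP2-1 did not pass with library size only (0.0392, adjusted p = 0.743 by edgeR) or with limma on log2(FPKM + 1) (0.0429, adjusted p = 0.759) and log2(FPKM + 0.1) (0.0431, adjusted p = 0.779). Between kernel and ear leaf it was 1.81 for PIP1-1, 1.61 for PIP1-5, -0.70 for PIP2-1, 1.96 for PIP2-2, -1.53 for PIP2-3 and 2.15 for TIP2-1. With limma on log2(FPKM + 0.1) PIP1-5 (1.05, adjusted p = 0.418) and PIP2-3 (-2.08, adjusted p = 0.115) did not pass, and PIP2-3 did not pass without drought leaf replicate 2 (-1.17). At an adjusted p under 0.001, TIP2-1 between ear leaf and ear, PIP2-1 between kernel and ear, and PIP1-5 and PIP2-3 between kernel and ear leaf no longer passed. The value of PIP2-5 between kernel and ear is a fitted one that rests on 3 counts in the drought kernel, and it was -4.89 without drought kernel replicate 2 and -9.52 without replicate 1, where no count is left. Groups of 2 libraries were too small for a check of single samples.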

How the results depend on the processing

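The drought calls of the ear leaf and kernel members kept their count of 3 and 5 without any single library, and their directions held in every alternative run. The ear was less firm. Its 2 calls became 0 when the null was a log2 change of 1, 1 with limma on log2(FPKM + 0.1), and 0 to 2 without single libraries. Of other aquaporin genes, the 3 ear calls became 1 with library size only, 0 with the stricter null, 1 with limma on log2(FPKM + 1), 0 on log2(FPKM + 0.1) and 1 to 3 without single libraries. The 3 leaf calls became 1 under either limma fit, and the 10 kernel calls 4 with the stricter null. The 7 members called between watered kernel and ear leaf became 4 with library size only and under either limma fit. Between watered kernel and ear the call of PIP1-5 was lost with DESeq2, with organs fitted alone and with the stricter null. Limma on log2(FPKM + 0.1) lost the calls of PIP1-5 and PIP2-5 there. Without single libraries the PIP1-5 value ran from 2.28 to 6.15, with the call lost each time.

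Directions turned where scaling mattered. PIP2-1 between watered ear leaf and ear was -0.51 with library size only, -0.52 with limma on log2(FPKM + 1) and -0.52 on log2(FPKM + 0.1), and between watered kernel and ear leaf 0.56, 0.57 and 0.57. The interaction of PIP2-2 between ear leaf and ear, which was not called, was 0.0503, 0.0491 and 0.0513 under these, and that of TIP2-1 between kernel and ear was -0.22 with limma on log2(FPKM + 1). Without single libraries TIP2-1 between kernel and ear ran from -0.12 to 1.03, PIP2-1 between watered kernel and ear from -0.11 to 0.16, and PIP2-5 between kernel and ear leaf from -1.96 to 2.67. The cause was not tested.

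In expected counts in place of FPKM, the share of PIP1-1 was 11.2% in control and 31.2% in drought ears, 36.1% and 52.6% in the leaf and 23.3% and 58.1% in the kernel. That of PIP2-1 was 74.9% and 55.3%, 25.2% and 31.2%, and 47.6% and 17.8%. Longer transcripts weigh more on this scale.

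Deviations of control and drought libraries with the same number were correlated at 0.0104 in the ear, -0.00362 in the leaf and 0.0109 in the kernel over 20821 genes. No shared deviation was thus seen within an organ. Whether libraries of the same number shared a field block or plants cannot be told from these values. Libraries of the same number from different organs were not compared. The replicate block gave 2, 3 and 5 drought calls among the members, as without it, and 9 rather than 10 among the other kernel aquaporins. Summing members with near-identical proteins was not run, for lack of a protein table. Depth limits PIP1-5, PIP2-3 and PIP2-4 in the ear and PIP2-5 and TIP2-2 in drought kernels.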

Other observations

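The gene closest to PIP1-1 in pattern, GRMZM2G126010, is annotated as actin, and the study used maize actin1 as the internal control of its RT-PCR. Whether both are the same gene was not tested. For the genes it measured by both methods, the paper reported that RT-PCR and sequencing matched well. The FPKM of GRMZM2G126010 was 10.7 and 11.6 in control ears and 22.1 and 25.9 in drought ears. It was 43.1 and 48.7 against 88.7 and 91.6 in the ear leaf, and 32.9 and 29.8 against 96.2 and 98.3 in the kernel. Its log2 fold changes on the TMM scale were 0.96, 0.65 and 1.83.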
